A study of Mus musculus with 6 samples.

Results

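Secretoglobins are small proteins that airway epithelial cells secrete onto the airway surface, and they mark the non-ciliated secretory cells known as club cells. The genes described here are 3 secretoglobins (Scgb1a1, Scgb3a1 and Scgb3a2), 3 enzymes that act on inhaled or endogenous small molecules (Cyp2f2, Aldh1a1 and Fmo2), and the secreted host defence protein gene Bpifa1. They were chosen by gene symbol, and each of the 7 symbols is listed in all 6 libraries, among 29492 genes listed in any library and 20927 listed in all.

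The mice were C57BL/6J males, 12 weeks old. Their lungs were taken on day 3 and gave 2 libraries in each of 3 groups. The control group received PBS. The LPS group received lipopolysaccharide, a bacterial cell wall component that sets off inflammation, at 1 mg/kg. The third group received LPS and activation of the SLC, which the labels call SLC-Gq and count as 7 activations, where the series title names the subcoeruleus nucleus of the brainstem. No mice with SLC activation alone are analysed here, so every SLC library also carries LPS. Each library is named by its group and replicate number, as control_1 and control_2 for PBS, LPS_1 and LPS_2 for LPS, and SLC_1 with SLC_2 for the third group. Whole lung was digested and dead cells were removed, so the cells sampled depend on what survived digestion.

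Club cells line the conducting airways, secrete Scgb1a1 protein in bulk and carry out much of the lung's oxidation of inhaled chemicals. Scgb3a2 and Scgb3a1 are related secreted proteins, and in mouse airways Scgb3a1 marks a subset of secretory cells. Cyp2f2 is a cytochrome P450 of mouse club cells, Fmo2 is the flavin-containing monooxygenase typical of lung, and Aldh1a1 oxidises retinaldehyde to retinoic acid as well as other aldehydes. Bpifa1, also called SPLUNC1, is a secreted protein of the airway lining that binds bacterial lipids.

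The deposited matrices hold 31589233 to 48641470 UMIs per library, where a UMI marks 1 captured RNA molecule. Barcodes with at least 500 UMIs are called cells here, and there were 11887 to 14599 of them per library with a median of 1128 to 2569 UMIs. Neutrophils, cells named from marker genes, made up 13.9% and 12.1% of cells in the controls, 60.5% and 40.3% in the LPS libraries, and 66.7% and 63.9% in the SLC libraries. The median mitochondrial share was 9.72% and 8.53% in the controls and 1.27% to 3.01% in the other 4 libraries. Levels are in CPM, a gene's UMIs scaled to a common total of all UMIs in the barcodes summed. In such sums fewer cells of a type and less RNA per cell cannot be told apart.

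Upstream sequence was printed for the 3 airway genes that the RefSeq table (GRCm38.p6) holds with 1 start site, since these genes share a cell cluster in the results below. Of the 7 genes, 5 have an entry in that table. The 250 bases before the start site are at chr11:49663345-49663594 for Scgb3a1, chr7:27119705-27119954 for Cyp2f2 and chr2:154142630-154142879 for Bpifa1, all on the plus strand. Capitals mark matches, on either strand, to 4 short motifs: TGTTTGC and TGTTTAC (the core bound by forkhead factors), CTCAAG (a core bound by NKX2-1) and TTGCNNAA (a C/EBP core).
Scgb3a1: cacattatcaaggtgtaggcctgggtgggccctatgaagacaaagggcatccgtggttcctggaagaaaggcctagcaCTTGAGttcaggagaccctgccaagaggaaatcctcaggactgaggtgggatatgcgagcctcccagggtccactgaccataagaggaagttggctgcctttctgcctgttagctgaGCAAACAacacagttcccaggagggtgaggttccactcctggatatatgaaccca
Cyp2f2: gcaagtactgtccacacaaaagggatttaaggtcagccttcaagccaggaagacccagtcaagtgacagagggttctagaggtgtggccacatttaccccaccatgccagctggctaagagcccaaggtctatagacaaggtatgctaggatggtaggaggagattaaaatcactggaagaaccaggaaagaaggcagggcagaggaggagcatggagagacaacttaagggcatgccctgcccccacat
Bpifa1: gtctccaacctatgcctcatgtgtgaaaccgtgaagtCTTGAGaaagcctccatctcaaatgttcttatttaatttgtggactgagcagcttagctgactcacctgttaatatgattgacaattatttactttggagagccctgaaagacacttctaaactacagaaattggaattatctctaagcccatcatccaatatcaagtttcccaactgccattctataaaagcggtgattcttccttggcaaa
The Scgb3a1 window held CTCAAG on the minus strand, 172 to 167 bases before the start, and TGTTTGC on the minus strand, 55 to 49 bases before it. The Bpifa1 window held CTCAAG on the minus strand, 213 to 208 bases before the start, and the Cyp2f2 window held none of the 4. Over 32536 distinct windows of 250 bases in the table, 4.31% held TGTTTGC, 3.17% TGTTTAC, 13.3% CTCAAG and 9.57% TTGCNNAA. These motifs do not overlap one another in the windows printed, and a match is not a measured binding site.

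Among the named cell classes of the controls, an airway epithelial cluster held the largest part of the UMIs of 5 of the 7 genes. Aldh1a1 was split between that cluster and fibroblasts, and Fmo2 lay mainly in fibroblasts. The data thus go against the label of club cell gene for Fmo2, and they show Aldh1a1 in fibroblasts as well as airway cells. For the other 5 they show airway cells without telling club cells from ciliated cells. Cells were clustered without the 7 genes among the variable genes, and clusters were named from marker lists. A single cluster of 777 cells carried markers of both secretory cells (Cbr2, Reg3g) and ciliated cells (Tmem212, Dynlrb2) among its 10 leading genes. It is called airway epithelial cells here, a name set after its leading genes were seen, and it could not be split cleanly into secretory and ciliated cells. In the 2 control libraries it had the highest level of 6 of the 7 genes among the named classes, and fibroblasts had the highest level of Fmo2.

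For Scgb1a1 the airway cells held 45762 and 48343 CPM in the controls, and no other class with at least 20 cells was above 1703 CPM in control_1 or 1951 CPM in control_2. For Scgb3a2 the airway cells held 11867 and 33761 CPM, against at most 65.2 and 272 CPM in any other class. Cyp2f2 stood at 5562 and 6316 CPM in airway cells, and the class next in order was alveolar type 2 cells at 75.8 and 154 CPM. For each of these genes the airway level was far outside the spread of the other classes, whereas the order among those other classes rested on levels that differed between the 2 controls as much as between classes. Bpifa1 stood at 2256 and 3205 CPM in airway cells and at no more than 25.5 and 116 CPM elsewhere. Scgb3a1 stood at 847 and 553 CPM, with at most 48.4 and 26.3 CPM elsewhere.

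Fmo2 followed mesenchymal and not airway cells. Its level in the controls was 3132 and 3653 CPM in fibroblasts, 1411 and 1110 CPM in pericytes or smooth muscle, 392 and 625 CPM in endothelial cells, and 246 and 355 CPM in airway cells. These classes kept this order in their means, and the endothelial and airway ranges did not overlap. Aldh1a1 was 4592 and 6008 CPM in airway cells and 2065 and 2299 CPM in fibroblasts. Because the controls held many more fibroblasts than airway cells, fibroblasts contained 53.6% and 50.4% of all Aldh1a1 UMIs there and airway cells 20.8% and 21.9%. For Fmo2 the fibroblast share was 73.2% and 75.4%, and the airway share was 1% and 1.22%.

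**Figure D1:**
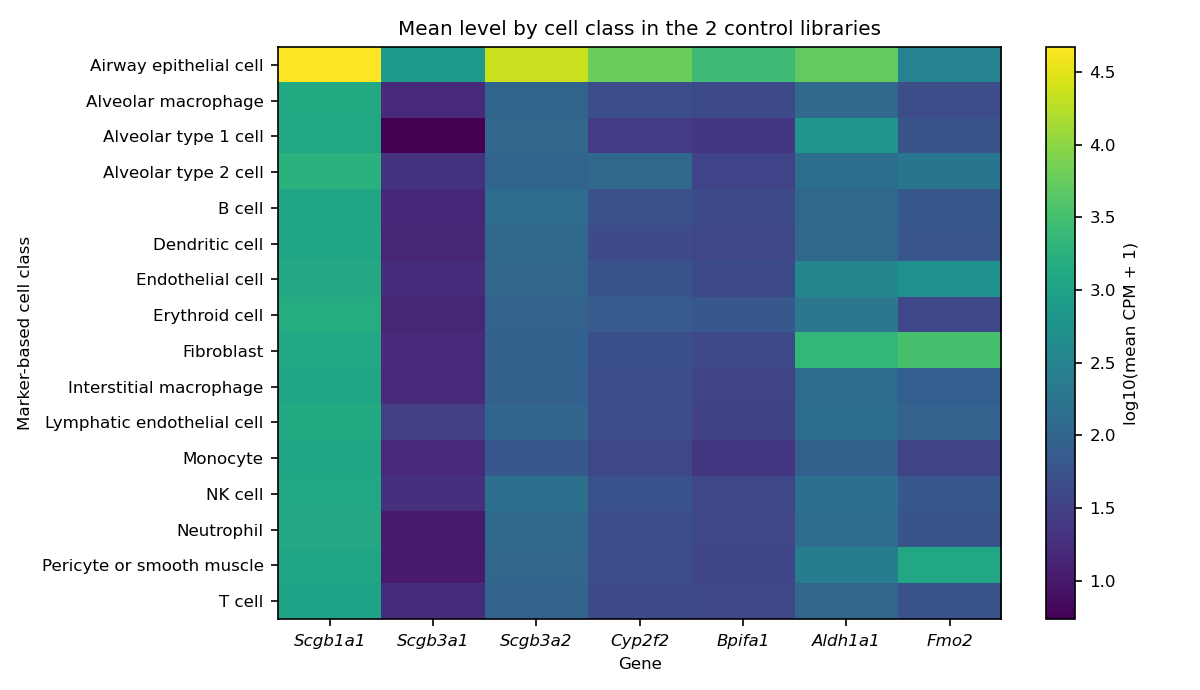
Mean level of each gene (columns) in each marker-based cell class (rows) over the 2 control libraries, coloured by log10 of mean CPM plus 1. The airway row is brightest for 6 genes, while Fmo2 is brightest in fibroblasts at 3132 and 3653 CPM and Aldh1a1 is high in both classes.

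Across the 32 clusters the genes fell into the same 2 patterns. By Pearson's r of log2(CPM + 1) over clusters, among 8414 genes with at least 50 CPM in some cluster, the 3 genes most like Scgb1a1 were Cyp2f2 (0.983), Scgb3a2 (0.970) and Scgb3a1 (0.969). The 3 nearest to Bpifa1 were Scgb3a2 (0.972), Scgb3a1 (0.953) and Cyp2f2 (0.948). The nearest to Aldh1a1 were Gsta3 (0.939), a glutathione transferase, Rbp4 (0.908), a retinol carrier, and Fam13a (0.901). The nearest to Fmo2 were Ogn (0.957), Sdc2 (0.947) and Mxra8 (0.947), of which Ogn encodes a matrix proteoglycan. The clusters share libraries, depth and free RNA, so these values describe likeness and carry no test.

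Within single cells the cells with Scgb3a1 lay among those with Scgb3a2. Over the 6 libraries 52 cells held at least 5 UMIs of Scgb3a1, and all 52 also held at least 5 UMIs of Scgb3a2. Of 441 cells with at least 5 UMIs of Scgb3a2, 52 (11.8%) had at least 5 of Scgb3a1. Overlap with Scgb1a1 is not read here, since 39% and 63% of control alveolar macrophages also reached 5 UMIs of it. Of the 65 cells with at least 5 UMIs of Bpifa1, 60 (92.3%) reached 5 UMIs of Cyp2f2, 59 (90.8%) of Scgb3a2, 58 (89.2%) of Aldh1a1, 44 (67.7%) of Scgb3a1 and 16 (24.6%) of Fmo2. Of the 537 cells with at least 5 UMIs of Cyp2f2, 311 (57.9%) reached 5 UMIs of Scgb3a2 and 443 (82.5%) reached 5 of Aldh1a1. In turn 311 of the 441 Scgb3a2 cells (70.5%) reached 5 UMIs of Cyp2f2. Aldh1a1 and Fmo2 met mostly outside the airway, with 2916 of 3736 Aldh1a1 cells (78.1%) also at 5 UMIs of Fmo2. These counts pool libraries of unequal depth, and a cell with many UMIs passes the limit for every gene more easily.

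Much of the signal of the rarer genes came from very few cells. In control_1 50% of the Bpifa1 UMIs in cells lay in 5 cells, and in control_2 in 7 cells. In LPS_2 a single airway cell carried 911 of 1413 Bpifa1 UMIs (64.5%), and without that cell the library's level is 11.5 CPM rather than 32.3 CPM. A single cell also carried 61.4% of Bpifa1 UMIs in SLC_2 and 47% in SLC_1. For Scgb3a1 the top cell held 13.5% and 14.7% in the controls, 51.5% and 52.7% in the LPS libraries, and 15.1% and 42.7% in the SLC libraries. In treated libraries a handful of cells can therefore hold much of these genes' levels, and the rest is spread thinly. Cells with at least 5 UMIs of Scgb3a1 held 38% of all its UMIs in SLC_1 and 87.4% in LPS_2. Scgb1a1 was broader, with a top cell of 2.47% to 8.87%, and Fmo2 the broadest, with a top cell of 0.188% to 2.78%.

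The first comparison asked how the genes' levels in all cells of a library differed between LPS and PBS. Scgb3a1 and Cyp2f2 fell, with log2 fold changes of -2.70 and -2.62, and the other 5 genes had lower fitted levels that did not pass the test. A gene passes, falls or rises here at an adjusted p under 0.05, the Benjamini-Hochberg value of edgeR's quasi-likelihood test over 18110 genes. That count of 2 of 7 stands beside 4.68% of all genes tested that passed as lower. With library totals alone in place of TMM factors, the median gene moved from a log2 change of -0.01 to -0.38, and 22.9% of the passing genes were higher in place of 48.2%. For SLC activation with LPS the median moved from -0.01 to -0.37, and 19.7% were higher in place of 41.8%. All 7 genes stayed below control under that scaling in both comparisons.

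Cyp2f2 stood at 239 and 336 CPM in the controls and at 29.8 and 43.2 CPM after LPS. Its log2 fold change was -2.62 (SE 0.51, n = 2 libraries a group, edgeR adjusted p = 0.034), or 6.14-fold lower. Scgb3a1 stood at 44.1 and 39.6 CPM in the controls and at 2.53 and 7.51 CPM after LPS. Its log2 fold change was -2.70 (SE 0.52, edgeR adjusted p = 0.033), or 6.50-fold lower. For both genes each LPS library was below each control library by more than the spread within a group.

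Scgb1a1 was 2609 and 3563 CPM in the controls and 865 and 1156 CPM after LPS, a log2 fold change of -1.25 (SE 0.52, edgeR adjusted p = 0.17). Scgb3a2 was 486.5 and 1610.0 CPM in the controls and 35.1 and 184 CPM after LPS, with a log2 fold change of -2.91 (SE 1.09, edgeR adjusted p = 0.14). Both the controls and the LPS libraries lay far apart for Scgb3a2, and its fold change had a large error. Aldh1a1 was 693 and 993 CPM in the controls and 80.1 and 273 CPM after LPS (log2 fold change -1.91, SE 0.54, edgeR adjusted p = 0.074). Fmo2 was 781 and 1085 CPM in the controls and 86.8 and 468 CPM after LPS (log2 fold change -1.40, SE 0.68, edgeR adjusted p = 0.23). For these 4 genes the LPS libraries also lay below both controls, but LPS_1 and LPS_2 differed from each other, most for Scgb3a2 and Fmo2. The share of all genes in that order was not counted, so nothing is read from it.

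Bpifa1 had 106 and 191 CPM in the controls and 32.3 CPM in LPS_2, while LPS_1 held 1 UMI among its 38314489 in cells. That is below 3 UMIs, so no fold is given against LPS_1 alone. The fitted log2 fold change was -2.86 with an SE of 1.72 (edgeR adjusted p = 0.32). Both LPS values lay below both controls, an order not counted over all genes, and they lay far from each other.

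With SLC activation and LPS against PBS, 5 of the 7 genes fell: Scgb1a1, Scgb3a1, Cyp2f2, Aldh1a1 and Fmo2. Among all genes tested 7.6% passed as lower in this comparison. It shares its control libraries with the LPS comparison, so both sets of values lean on the same 2 mice. Scgb1a1 stood at 867 and 251 CPM in the SLC libraries (log2 fold change -2.14, SE 0.54, edgeR adjusted p = 0.048). Scgb3a1 stood at 6.62 and 4.05 CPM (log2 fold change -2.62, SE 0.52, edgeR adjusted p = 0.032), and Cyp2f2 at 46.5 and 15.2 CPM (log2 fold change -2.89, SE 0.51, edgeR adjusted p = 0.028). Each of these libraries lay below both controls, an order not counted over all genes.

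Aldh1a1 was 102.5 and 81.0 CPM in the SLC libraries (log2 fold change -2.84, SE 0.56, edgeR adjusted p = 0.032). Fmo2 was 90.1 and 89.9 CPM (log2 fold change -3.01, SE 0.72, edgeR adjusted p = 0.045), or 8.06-fold lower. For both enzymes the 2 SLC libraries were close to each other and to LPS_1, and LPS_2 was higher than all 3. Scgb3a2 at 127 and 22.2 CPM (log2 fold change -3.51, SE 1.12, edgeR adjusted p = 0.082) and Bpifa1 at 7.09 and 4.68 CPM (log2 fold change -4.31, SE 1.84, edgeR adjusted p = 0.16) did not pass.

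Which genes passed changed with the library left out. Such a fit has 1 library in a group, too few to judge a call. Whether a call depends on 1 library was therefore not settled. With a library left out, the log2 fold change with LPS ran from -3.65 to -2.14 for Scgb3a1 and from -2.88 to -2.33 for Cyp2f2. With SLC activation and LPS it ran from -3.12 to -1.53 for Scgb1a1, -2.86 to -2.36 for Scgb3a1 and -3.73 to -2.33 for Cyp2f2. The same comparison gave -3.09 to -2.54 for Aldh1a1 and -3.24 to -2.73 for Fmo2. The direction of all 7 genes stayed below control in each of these fits. With cells limited to those with at least 300 genes and under 20% mitochondrial UMIs, 0 of the 7 passed with LPS.

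**Figure D2:**
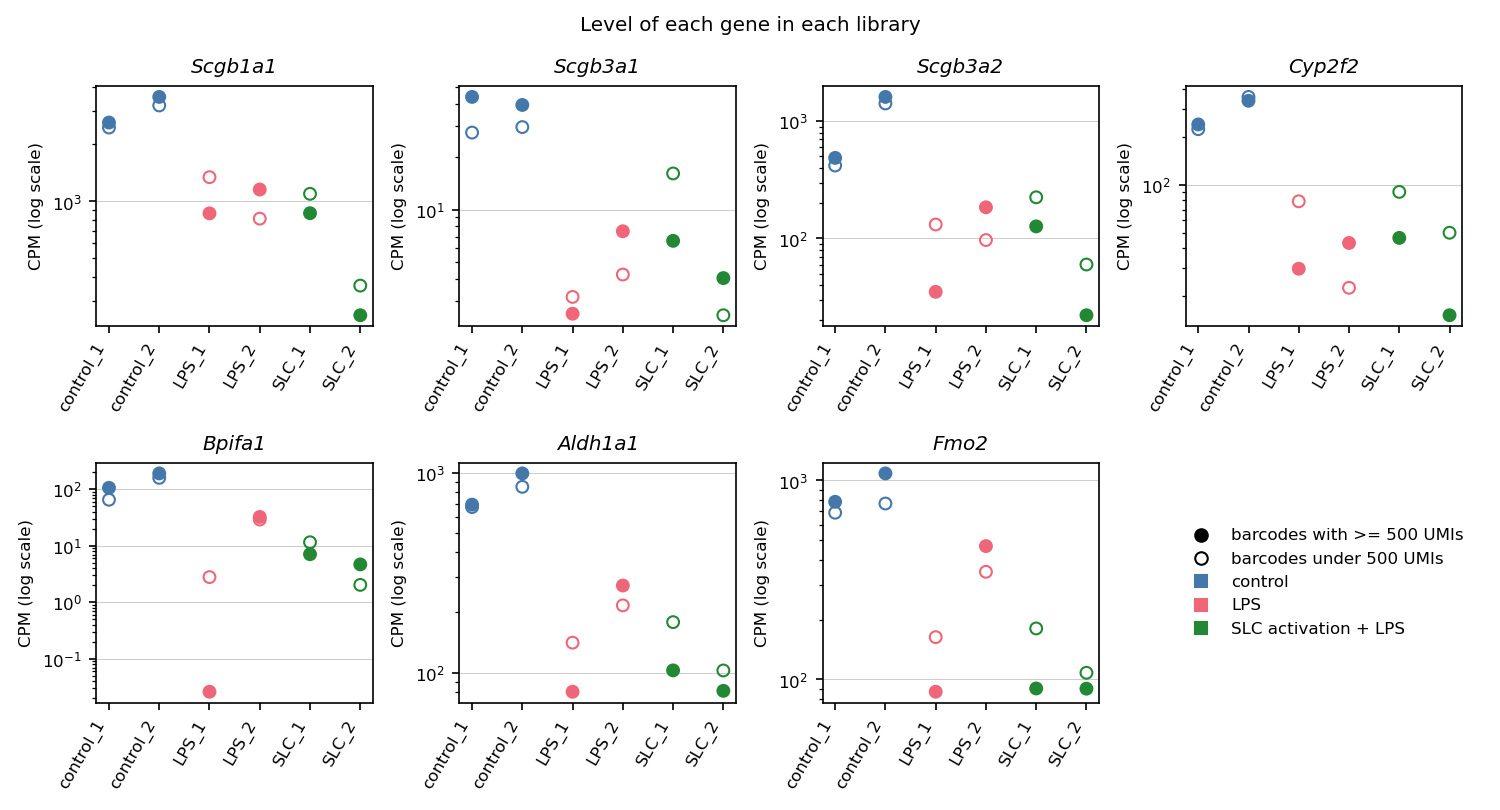
CPM on a log axis for each gene in each library, with filled points for barcodes of at least 500 UMIs and open points for barcodes under 500 UMIs, coloured by group. Both kinds of point are highest in the controls, an order whose share over all genes was not counted. Bpifa1 drops to 1 UMI in the cells of LPS_1.

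Between SLC activation with LPS and LPS alone no gene of the 7 passed. Here 0% of all genes tested passed as lower by edgeR, with 364 lower and 122 higher at an unadjusted p under 0.05, and DESeq2 passed 10 lower and 5 higher, none of them among the 7. Fmo2 came nearest, at an unadjusted edgeR p of 0.0539, with 90.1 and 89.9 CPM against 86.8 and 468 CPM (log2 fold change -1.61, SE 0.69, edgeR adjusted p = 0.93). LPS_1 was already at the SLC level of Fmo2, and only LPS_2 stood above it. Scgb1a1 had a log2 fold change of -0.89 (SE 0.52, edgeR adjusted p = 0.93) with 867 CPM in SLC_1 beside 865 CPM in LPS_1. Scgb3a1 had 0.08 (SE 0.50, edgeR adjusted p = 0.98). The test's failure to pass does not show that the treated groups were alike.

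Barcodes under 500 UMIs, with a median of 13 to 22 UMIs, can hold free RNA and cell remnants. Their levels of the 7 genes were also highest in the controls. The share of all genes in that order was not counted, so nothing is read from it. Scgb1a1 there was 2455 and 3212 CPM in the controls, 1343 and 811 CPM after LPS, and 1097 and 360 CPM with SLC activation and LPS. In the controls these levels were 0.941 and 0.902 times those in the cells. After LPS the ratio was 1.55 in LPS_1 and 0.702 in LPS_2, so LPS_2 had less Scgb1a1 outside cells than LPS_1 although its cells held more. The same held for Cyp2f2, at 78.8 CPM under 500 UMIs in LPS_1 against 22.6 CPM in LPS_2, and for Scgb3a2, at 132 against 97.0 CPM.

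In the test of these sums Aldh1a1 fell after LPS, from 674 and 851 CPM to 141 and 217 CPM (log2 fold change -1.81, SE 0.35, edgeR adjusted p = 0.035). That is 1 of 7 genes, beside 2.34% of 14637 genes passing as lower. With library totals alone 35.5% of the passing genes were higher in place of 64.8%, and 33.6% in place of 56% for SLC activation with LPS, while the 7 stayed below control. With SLC activation and LPS against PBS, Aldh1a1 (log2 fold change -2.23, SE 0.36, edgeR adjusted p = 0.030) and Fmo2 (log2 fold change -2.12, SE 0.41, edgeR adjusted p = 0.041) fell, 2 of 7 beside 2.23% of genes. Fmo2 went from 689 and 766 CPM to 180.5 and 108 CPM. Which genes passed again changed with the library left out, and no call is read from those fits. In them the log2 fold change of Aldh1a1 ran from -2.19 to -1.54 with LPS. With SLC activation and LPS it ran from -2.65 to -1.91 for Aldh1a1 and from -2.50 to -1.83 for Fmo2. Between SLC activation with LPS and LPS alone 0% of genes passed as lower by edgeR, with 344 lower and 162 higher at an unadjusted p under 0.05, and DESeq2 passed 3 lower and 4 higher, none of the 7.

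Where the UMIs of a gene lay differed between libraries. In LPS_2 airway cells contained 86.3% of all Scgb1a1 UMIs and barcodes under 500 UMIs 7.36%. In the other 5 libraries airway cells contained 34.6% to 56.1% and barcodes under 500 UMIs 14.9% to 19%. Neutrophils, which are not known to make it, contained 13.6% of Scgb1a1 UMIs in LPS_1, 10.6% in SLC_1 and 15.7% in SLC_2, against 2.63% and 2.13% in the controls and 2.7% in LPS_2. Of the 16 Bpifa1 UMIs in LPS_1, 93.8% were in barcodes under 500 UMIs.

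**Figure D3:**
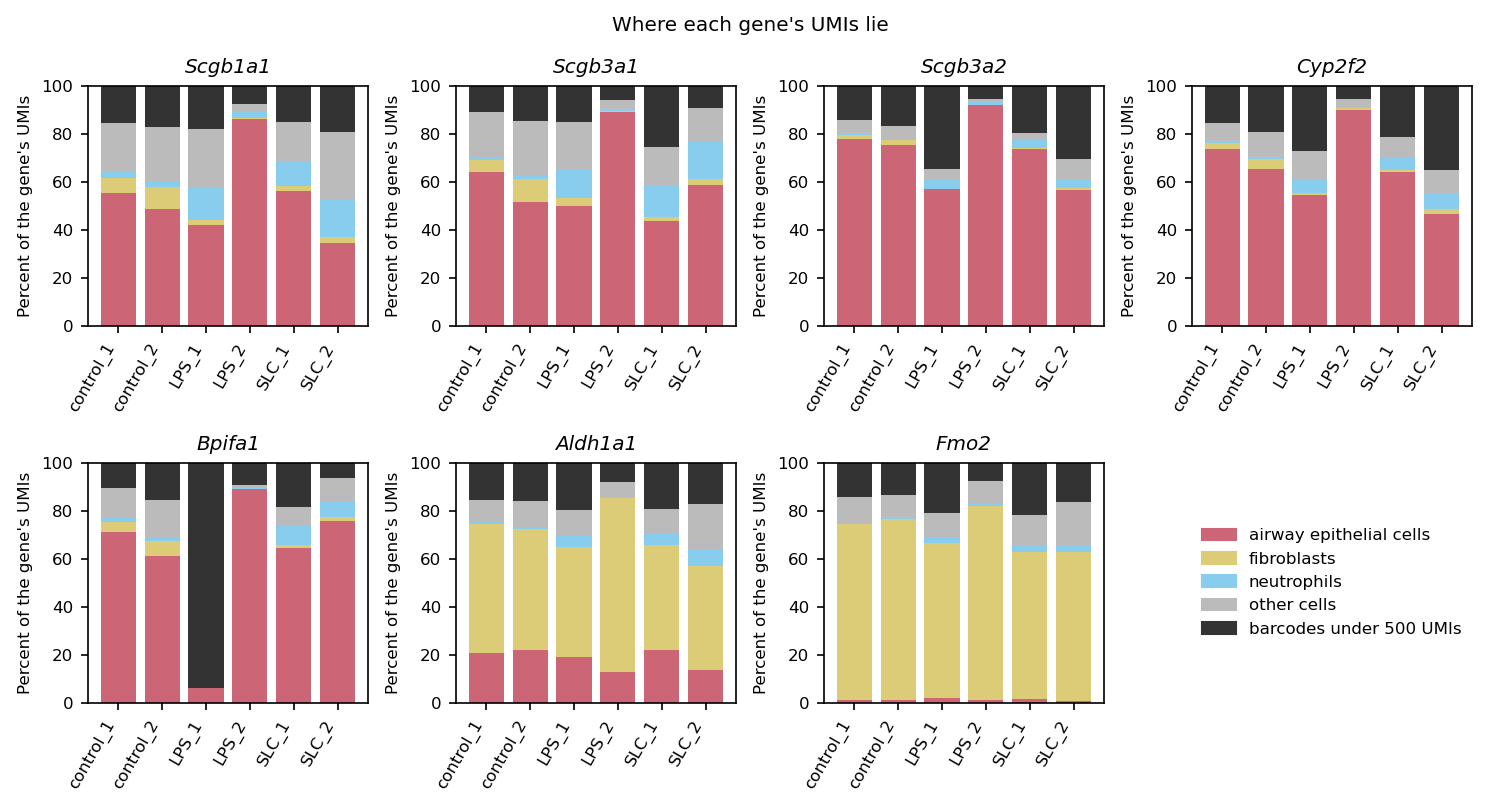
Percent of each gene's UMIs per library that lie in airway epithelial cells, fibroblasts, neutrophils, other cells, and barcodes under 500 UMIs. LPS_2 has the largest airway part for Scgb1a1 at 86.3%, and fibroblasts hold the largest part of Aldh1a1 and Fmo2 in every library.

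The share of cells with at least 5 UMIs gave a different picture for Scgb1a1 than for the other airway genes. It was 14.1% (exact binomial 95% interval 13.6% to 14.7%) and 25.6% (24.8% to 26.3%) in the controls, 4.94% and 0.564% after LPS, and 3.16% and 0.455% with SLC activation and LPS. Only 7.61% and 6.85% of these control cells were airway cells. In alveolar macrophages, which are not known to express Scgb1a1, the share was 39% and 63% at a median of 3325 and 3535 UMIs per cell, and in neutrophils 2.61% and 3.69% at 1319 and 1026. Airway cells had 69.2% and 76.4% at 4014 and 3235. Most control cells that count toward the Scgb1a1 share were thus not airway cells, and the source of their Scgb1a1 UMIs was not tested. UMIs outside airway cells also count in the Scgb1a1 sums over all cells above. LPS_1 had the higher share and the lower CPM of the 2 LPS libraries, so no order is taken from these shares. Intervals cover the counting of cells only, and not the spread between mice.

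For Scgb3a1 all 52 cells with at least 5 UMIs were airway cells, and for Cyp2f2 91.3% to 97.3% of them were. The Cyp2f2 share was 1.16% (0.997% to 1.35%) and 1.6% (1.39% to 1.82%) in the controls, 0.161% and 0.437% after LPS, and 0.349% and 0.182% with SLC activation and LPS. No neutrophil reached 5 UMIs of Cyp2f2 in any library. The Scgb3a2 share was 0.712% and 1.49% in the controls, 0.189% and 0.353% after LPS, and 0.342% and 0.121% with SLC activation and LPS. Bpifa1 was at 0.13% and 0.212% in the controls and 0.0589% in LPS_2, and at 0 of 14263 cells in LPS_1, whose exact binomial 95% interval reaches 0.0259%. The Fmo2 share was 11.9% and 16.4%, then 1.63% and 6.18%, then 1.75% and 1.25%, with 73.2% and 73.7% of control fibroblasts at 5 UMIs.

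Scgb1a1 is left aside here, since no order is taken from its shares. The other 6 genes each had a lower share in both LPS libraries than in both controls, and in both SLC libraries than in both controls. None of these 6 was lower in both SLC libraries than in both LPS libraries. Among 5786 genes with at least 10 such cells in all, the same held for 11.4%, 26.3% and 27% of genes. The smallest two-sided p of an exact permutation test is 0.33 with 2 libraries on each side, and no share difference was called. After each cell was thinned to 500 UMIs, the Cyp2f2 share was 0.24% and 0.489% in the controls, 0.0421% in both LPS libraries, and 0.0713% and 0.0379% in the SLC libraries. The Fmo2 share after thinning was 1.14% and 2.28% in the controls and 1.83% in LPS_2, so LPS_2 lay between the controls, whereas LPS_1 was at 0.014%.

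The airway cells themselves were a smaller part of all cells in each treated library than in each control, and their part of the structural cells overlapped between the groups. They were 227 of 14599 cells (1.55%, exact binomial 95% interval 1.36% to 1.77%) in control_1 and 314 of 13710 (2.29%, 2.05% to 2.55%) in control_2. They were 48 (0.337%) and 69 cells (0.58%) in the LPS libraries, and 76 (0.542%) and 43 cells (0.326%) in the SLC libraries. Among structural cells (epithelial, endothelial, fibroblast, and pericyte or smooth muscle classes) they were 4.61% and 6.05% in the controls, 6.23% and 3.23% after LPS, and 5.99% and 7.92% with SLC activation and LPS.  The neutrophil share moved opposite to the share among all cells, and its part in the lower levels in whole libraries was not tested.

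When only structural cells were summed, an alternative added after the data were seen, none of the 7 genes passed in any comparison. Of 14141 genes 0% passed as lower by edgeR with LPS, 0% with SLC activation and LPS, and 0% between the treated groups. At an unadjusted p under 0.05, 2 of the 7 were lower with LPS and 4 with SLC activation and LPS, and 0 between the treated groups. Over all 14141 genes 506, 671 and 306 were lower at that cut. DESeq2 passed 0, 1 and 0 of the 7, and 57, 70 and 1 genes as lower over the whole table. Scgb1a1 was 5374 and 6403 CPM of structural cells in the controls and 5345 and 6772 CPM after LPS, a log2 fold change of 0.17 (SE 0.48). Cyp2f2 was 581 and 716 CPM in the controls, 259 and 262 CPM after LPS, and 303.5 and 160.4 CPM with SLC activation and LPS. Its log2 fold changes were -1.18 (SE 0.34, edgeR adjusted p = 0.33) and -1.38 (SE 0.34, edgeR adjusted p = 0.25), beside -2.62 and -2.89 in all cells. On this scale 5 of the 7 genes (Scgb3a1, Scgb3a2, Cyp2f2, Bpifa1 and Aldh1a1) lay below both controls in all 4 treated libraries. The share of all genes in that order was not counted, so nothing is read from the 5 of 7. Scgb1a1 and Fmo2 did not, with LPS_2 above both controls at 6772 and 2865 CPM.

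**Figure D4:**
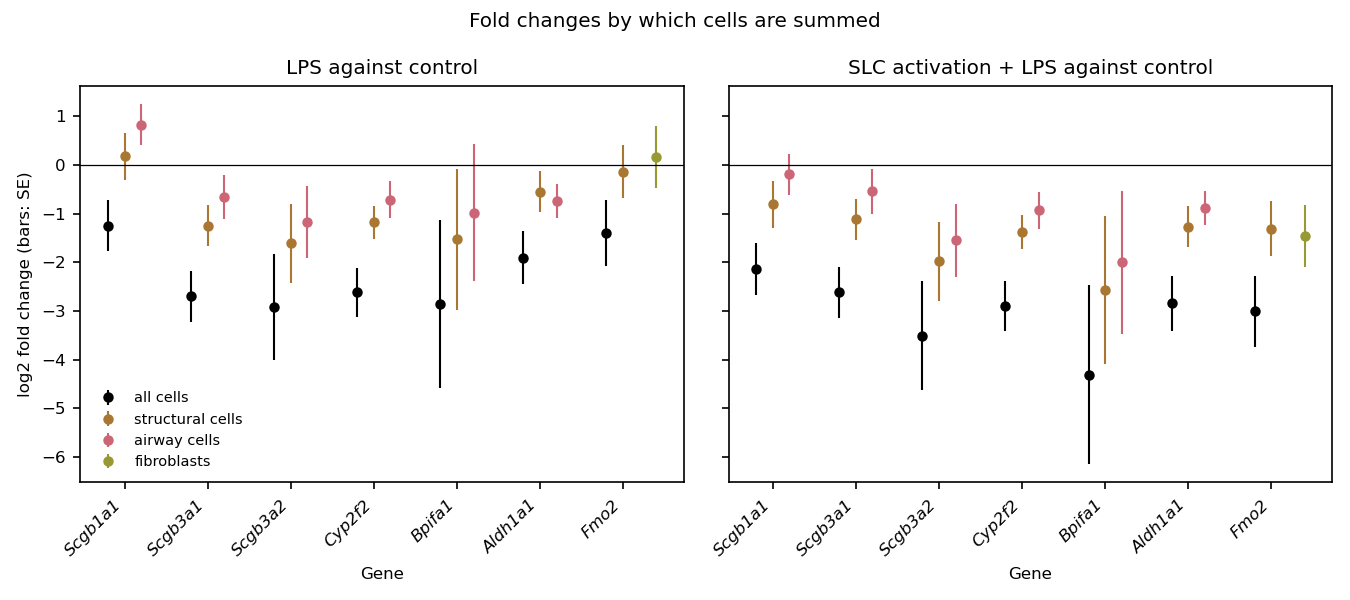
Log2 fold change of each gene against control (points, with the SE as bars) when all cells, structural cells, airway cells or fibroblasts are summed, for LPS and for SLC activation with LPS. The all-cell values lie lowest for every gene, and Scgb1a1 is at 0.17 in structural cells and 0.82 in airway cells after LPS.

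Within the airway cells none of the 6 genes tested there passed in any comparison. Over 6610 genes, 0.0454% passed as lower with LPS, 0.0151% with SLC activation and LPS, and 0% between the treated groups. At an unadjusted p under 0.05 by edgeR, 0 of the 6 were lower with LPS, 2 with SLC activation and LPS (Cyp2f2 and Aldh1a1), and 1 between the treated groups (Scgb1a1). Over all 6610 genes 297 were lower at that cut with LPS and 257 with SLC activation and LPS. DESeq2 passed 0 of the 6 in each. Between the treated groups 158 genes were lower and 123 higher at an unadjusted p under 0.05, and DESeq2 passed 0 genes.

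Scgb1a1 was not lower in airway cells after LPS. It stood at 45762 and 48343 CPM in the controls, 71089.7 and 93879.6 CPM after LPS, and 57202 and 23945 CPM with SLC activation and LPS. Both LPS libraries were above both controls, with a log2 fold change of 0.82 (SE 0.42, edgeR adjusted p = 0.625), and SLC_2 was below them all. Cyp2f2 stood at 5562 and 6316 CPM in the controls, 3581 and 3598 CPM after LPS, and 3778 and 2436 CPM in the SLC libraries. Its log2 fold changes were -0.71 (SE 0.38, edgeR adjusted p = 0.64) and -0.93 (SE 0.38, edgeR adjusted p = 0.61). Aldh1a1 had the same order, with 4592 and 6008 CPM, then 3067 and 3263 CPM, then 2822 and 3012 CPM (log2 fold changes -0.74, SE 0.35, and -0.88, SE 0.36, edgeR adjusted p = 0.59 and 0.60). The 4 treated libraries lay below both controls for these 2 enzymes, among the 6 genes tested. The share of all genes in this order, or in that of Scgb1a1 after LPS, was not counted, so nothing is read from either.

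Scgb3a2 was 11867 and 33761 CPM in the control airway cells, 4899 and 15688 CPM after LPS, and 11689 and 4040 CPM with SLC activation and LPS, so its groups overlapped. Scgb3a1 was 847 and 553 CPM, then 238.5 and 620 CPM, then 386 and 584 CPM, and also overlapped. Bpifa1 was 2256 and 3205 CPM in the controls, 4.18 and 2767 CPM after LPS, and 560 and 848 CPM in the SLC libraries. The value of LPS_1 is 1 UMI among 239008 in its 48 airway cells, while LPS_2 was within the control range. With a library left out, the log2 fold change of Bpifa1 with LPS ran from -9.28 to 0.043. Which genes passed changed in those fits, which have 1 library in a group, and no call is read from them.

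Marker sums and mitochondrial shares within the airway cells stand beside these levels, and of them only the neutrophil marker sum separated both controls from all 4 treated libraries. The 10 secretory markers summed to 5372 and 7612 CPM of airway cells in the controls, 5891 and 9596 CPM after LPS, and 6174 and 4090 CPM in the SLC libraries. The 9 ciliated markers summed to 6092 and 4724, 2941 and 4784, and 2846 and 4830 CPM, and none of them was at 0 in any library. The 9 neutrophil markers summed to 334 and 344 CPM in the control airway cells and 722 to 1605 CPM in the treated ones, with 1 marker at 0 in control_2 and in SLC_2. The 10 alveolar type 2 markers summed to 1627 and 2548 CPM in the controls and 2386 to 4864 CPM in the treated libraries, with 1 or 2 markers at 0 in each treated library. Cells with at least 20% mitochondrial UMIs made up 47.6% and 59.6% of control airway cells, 25% and 18.8% in the LPS libraries, and 46.1% and 51.2% in the SLC libraries. The part of these values in the levels above was not tested. With airway cells of at least 20% mitochondrial UMIs left out, the log2 fold change with SLC activation and LPS was 0.15 for Scgb1a1 and 0.10 for Scgb3a1, in place of -0.20 and -0.55.

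**Figure D5:**
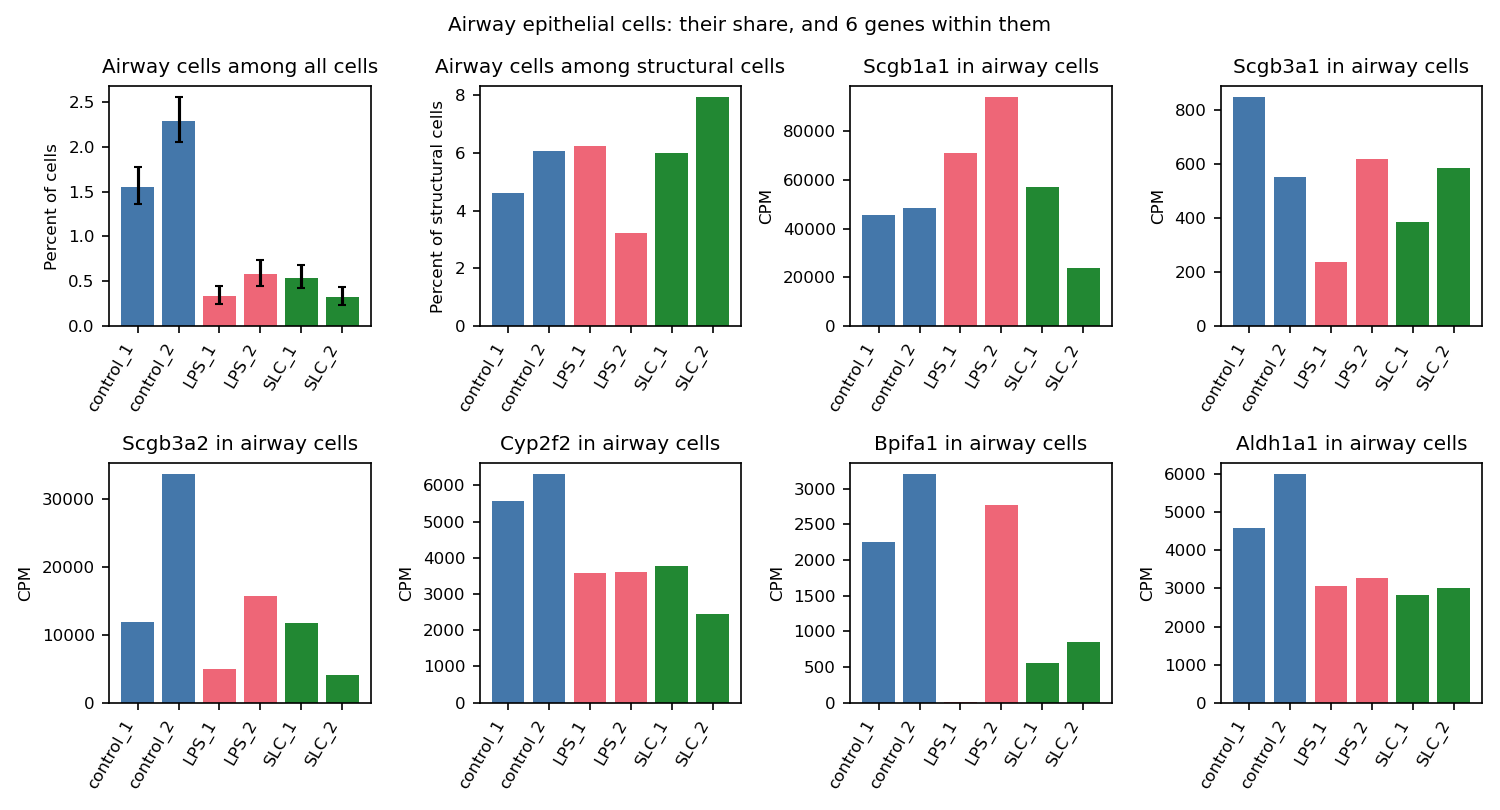
Airway epithelial cells per library as a percent of all cells (bars with exact binomial 95% intervals) and of structural cells, and CPM of 6 genes within them. The share of all cells drops from 1.55% and 2.29% to 0.326% to 0.58%, while Scgb1a1 within these cells is highest in the LPS libraries.

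Fmo2 was tested in fibroblasts, where it is highest. It stood at 3132 and 3653 CPM in the controls, 1201 and 6040 CPM after LPS, and 971 and 1293 CPM with SLC activation and LPS. The 2 LPS libraries lay on either side of the controls, and the log2 fold change was 0.16 (SE 0.63, edgeR adjusted p = 0.99). Against PBS the SLC libraries were lower (log2 fold change -1.46, SE 0.65, edgeR adjusted p = 0.39), and against LPS the log2 fold change was -1.62 (SE 0.65, edgeR adjusted p = 0.91, unadjusted p = 0.040). In these fits 0% of 11755 genes passed as lower with LPS, 0% with SLC activation and LPS, and 0% between the treated groups. At an unadjusted p under 0.05 by edgeR 362, 655 and 237 genes were lower, and DESeq2 passed 51, 85 and 1 as lower, not Fmo2. With a library left out, the log2 fold change of Fmo2 with SLC activation and LPS ran from -1.735 to -1.23 against PBS. Against LPS it ran from -2.33 to -0.15, and no call is read from those fits. Without LPS_2 the log2 fold change of Fmo2 with LPS against PBS was -1.32. Aldh1a1 in the same fibroblasts stood at 2065 and 2299, 780 and 3175, and 766 and 812 CPM, the order of libraries seen for Fmo2.

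Related genes in the sums over all cells were read from lists, and each count stands beside 4.68% of all genes lower and 4.35% higher with LPS, and 7.6% lower and 5.45% higher with SLC activation and LPS. Of 14 other airway secretory genes 2 fell and 1 rose with LPS, and 4 fell and 1 rose with SLC activation and LPS. Their median log2 fold changes were -2.37 and -2.12, while the median of all genes was -0.01 in both. Lypd2 and Pon1, named after their values were seen like the other genes given only by name here, fell in both comparisons, and Kcnk2 and Cyp2b10 in the second. The gene that rose was Hp, haptoglobin, at 20.8 and 24.1 CPM in the controls and 77.4 and 44.1 CPM after LPS (edgeR adjusted p = 0.029). Cyp2b10, a cytochrome P450 of the lung, went from 30.8 and 44.4 CPM to 2.11 and 8.54 CPM with LPS (edgeR adjusted p = 0.057) and fell to 4.44 and 3.42 CPM in the SLC libraries (edgeR adjusted p = 0.037). Cbr2, a carbonyl reductase of club cells, was 227 and 380 CPM, then 36.2 and 62.1 CPM (edgeR adjusted p = 0.082), then 65.3 and 14.1 CPM (edgeR adjusted p = 0.053). Reg3g, an antibacterial lectin, was 27.7 and 48.5 CPM in the controls and 14.1 and 56.1 CPM after LPS (edgeR adjusted p = 0.84).

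Of 28 other detoxification genes 9 fell with LPS and 11 with SLC activation and LPS, and none rose, with medians of -1.42 and -1.53. Sod3, the extracellular superoxide dismutase, fell from 826 and 1130 CPM to 217 and 198 CPM with LPS (log2 fold change -1.87, SE 0.35, edgeR adjusted p = 0.031). Gstm1, a glutathione transferase, fell from 319 and 360 CPM to 107 and 104 CPM (log2 fold change -1.32, SE 0.24, edgeR adjusted p = 0.030). Cyb5a and Gsto1 did not pass, with log2 fold changes of -0.44 and -0.27. Of 12 epithelial genes 4 fell with LPS (Epcam, Krt18, Krt19 and Cldn3) and 6 with SLC activation and LPS, with medians of -1.73 and -2.01. Epcam, a surface protein of epithelia, fell from 69.3 and 72.9 CPM to 8.17 and 15.4 CPM (log2 fold change -2.24, SE 0.34, edgeR adjusted p = 0.024), and Krt19 from 20.5 and 19.4 CPM to 2.98 and 2.65 CPM (edgeR adjusted p = 0.024). Cdh1 and Krt8 had log2 fold changes of -1.11 and -2.09 and did not pass with LPS.

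Of 14 tested genes among 17 other secreted defence genes, Lcn2 rose and Wfdc2 fell in each comparison with PBS, with list medians of -0.48 and -0.78. Lcn2, which encodes an iron-withholding protein made by epithelia and neutrophils, rose from 83.4 and 45.3 CPM to 987 and 395 CPM with LPS (log2 fold change 3.81, SE 0.57, edgeR adjusted p = 0.024). Slpi, Sftpa1 and Lyz1 did not pass, with log2 fold changes of 1.68, -0.39 and -0.69. Of 10 tested retinoic acid pathway genes among 12, none passed with LPS by edgeR and Cyp26b1, which degrades retinoic acid, rose with SLC activation and LPS. The list medians were -0.90 and -0.56. Dhrs3, Rdh10, Rarg and Rara, which act before or after retinoic acid, had log2 fold changes of 0.11, -0.32, -0.98 and -0.38 with LPS. None of the genes on these 5 lists passed between the treated groups. No list call is read from fits with a library left out, since such a fit has 1 library in a group.

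Inside the airway cells none of the genes on the 5 lists passed in any comparison. Lcn2 in these cells went from 16.6 and 12.4 CPM to 1210.0 and 155 CPM with LPS (log2 fold change 5.56, SE 0.90, edgeR adjusted p = 0.066), beside the higher neutrophil marker sum given above. Reg3g was 652 and 972 CPM in the controls, 1880.0 and 4810.0 CPM after LPS, and 1390.0 and 2040.0 CPM in the SLC libraries (log2 fold changes 2.04, SE 0.49, and 1.04, SE 0.48, edgeR adjusted p = 0.17 and 0.66). Every treated library was above both controls for Reg3g, an order not counted over all genes. Epcam, at 476 and 291 CPM in the controls and 288 to 494 CPM in the treated libraries, overlapped.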

How the data were processed

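The deposited values are raw UMI counts, 1 matrix per library of gene symbols by cell barcodes, from BD Rhapsody whole-transcriptome libraries per the labels. The submitters' processing notes name the builds GRCm39 and mm39, and no counting tool is named in the sources used here. The matrices are unfiltered. Barcodes with at least 500 UMIs were taken as cells, no doublets were removed, and 1 to 7 such barcodes were shared by each pair of libraries. Cells of all libraries were clustered on 3000 variable genes without the 7 genes, 40 principal components and 20 neighbours with leidenalg 0.10.2 at resolution 1. UMI counts were summed per library over cells, over barcodes under 500 UMIs and over classes with at least 20 cells in every library. Each gene was tested only in the class where its mean was highest.

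Sums were tested with edgeR 4.0.16 (TMM factors, filterByExpr, robust quasi-likelihood test, all 6 libraries in 1 fit with group as the only term), and DESeq2 1.42.0 was an alternative. The tests were tried on simulated data. With 2 libraries a group, p-values measure the spread between these mice, which the series describes as biological replicates. The genes and lists were chosen with earlier results of these data known. Named genes are the 7, the 4 genes of each list with the highest mean CPM, and the 3 genes most like each of the 7 over clusters. Other genes named were chosen after their values were seen.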

Additional observations from a re-analysis of the deposited data

How the results depend on the processing

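With 2 mice a group, calls moved with the fit and the library left out, and the cause was not tested for any change below. A fit with a library left out has 1 library in a group, so its counts below are not read as calls. After LPS the number of the 7 genes lower in cells, 2 in the report, was 4 by DESeq2, 1 in a fit of only the groups compared, 0 among cells with at least 300 genes and under 20% mitochondrial UMIs, 0 in structural cells and 0 to 5 with a library left out. With SLC activation and LPS it was 3 without a filter on low counts, 0 in structural cells and 0 to 7 with a library left out, in place of 5. Under 500 UMIs it was 5 by DESeq2, 2 without the filter, 3 with library totals and 0 to 2 with a library left out in place of 1, and for SLC activation with LPS 5 by DESeq2 and 0 to 4 in place of 2. In airway cells the leave-out counts ran from 0 to 1 in all 3 comparisons. A lower share of cells in both SLC than both LPS libraries held for 1 gene at 10 UMIs and 0 to 5 with a library left out, in place of 0.

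Whether the replicate numbers pair the samples was not settled. The differences between replicates 1 and 2 correlated at 0.05 (control and LPS), -0.10 (control and SLC) and -0.18 (LPS and SLC) over 18110 genes. With 1 difference a group these values cannot exclude pairing. With replicate number as a block, 0 and 0 of the 7 passed against PBS in cells and 0 and 1 under 500 UMIs. The block turned Bpifa1 in airway cells between the treated groups to 0.13 and Fmo2 in fibroblasts after LPS to -0.14. All genes passing numbered 232 and 292 with the block in place of 1635 and 2363.

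The sums over structural cells and over class cells under 20% mitochondrial UMIs were chosen after seeing the data. Other reversed log2 values were Scgb1a1 after LPS in structural cells (0.17), Scgb3a1 between the treated groups with the stricter cells (-0.025) and in airway cells without the filter (-0.0091), and, in airway cells under 20% mitochondrial UMIs with SLC activation and LPS, Scgb1a1 (0.15) and Scgb3a1 (0.10). Leaving out a library reversed these between the treated groups in cells: Aldh1a1 (-1.54 to 0.17), Bpifa1 (-2.43 to 7.62), Cyp2f2 (-1.18 to 0.29), Fmo2 (-2.34 to 0.031), Scgb3a1 (-0.47 to 1.04) and Scgb3a2 (-2.20 to 1.02). Under 500 UMIs it reversed Bpifa1 (-2.98 to 1.25), Cyp2f2 (-0.22 to 1.56), Scgb3a1 (-0.61 to 2.01) and Scgb3a2 (-0.97 to 0.86). In airway cells it reversed Bpifa1 (-2.08 to 7.25), Cyp2f2 (-0.75 to 0.12), Scgb3a1 (-0.47 to 0.94) and Scgb3a2 (-1.55 to 0.67), and against PBS Bpifa1 after LPS (-9.28 to 0.043) and Scgb1a1 with SLC activation and LPS (-1.14 to 0.34). Fmo2 in fibroblasts after LPS ran from -1.32 to 0.87.

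Counts of all genes passing moved by over 1.5 times in these alternatives. In cells after LPS (1635) they were 3413 by DESeq2, 3452 without the filter, 2464 with library totals, 849 with only the groups compared, 0 in structural cells and 0 to 3094 with a library left out. With SLC activation and LPS (2363) they were 4300, 4159, 5248 with only the groups compared, 0 in structural cells and 0 to 5144. Between the treated groups (0) they were 15 by DESeq2 and 23 without the filter. Under 500 UMIs (972, 741 and 0) they were 1729, 1769 and 7 by DESeq2, 1670, 1598 and 4 without the filter, 540 and 269 with the replicate block against PBS, and 0 to 1215, 0 to 1501 and 0 to 8 with a library left out. In airway cells (12, 6 and 0) they were 45 and 30 by DESeq2 against PBS, 153, 125 and 12 without the filter, 4 and 3 under 20% mitochondrial UMIs against PBS, 7 with the replicate block after LPS, and 4 to 104, 3 to 84 and 0 to 73 with a library left out. In fibroblasts (1, 3 and 0) they were 227, 380 and 1 by DESeq2, 241, 414 and 5 without the filter, 0 with the replicate block after LPS, and 0 to 355, 0 to 835 and 0 to 970 with a library left out. Bpifa1 and Scgb3a1 each reached 5 UMIs in at most 8 cells of any treated library.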
